A study of Bos taurus with 10 samples.

Results

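The 10 genes examined here encode RNA-binding regulators: Lin28a, Lin28b, Trim71, Esrp1, Esrp2, Rbpms, Rbpms2, Mbnl1, Mbnl2 and Rbfox2. They were taken by symbol from a table of 21130 genes, and all 10 had a row and passed the filter on low values that 14047 genes passed. The study was designed to compare muscle mRNA between cattle of genotype MSTN+/-, with 1 altered copy of MSTN, whose product myostatin limits muscle growth, and wild-type cattle, all aged 24 months; how the allele arose is not described in the labels. There were 7 libraries labelled MSTN+/- and 3 labelled wild type. Whether each library came from its own animal is not stated, so the p-values below measure only the spread between these libraries.

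The rows do not carry cattle identifiers. Of the 10 genes, 9 were described as Mus musculus genes and the description of Mbnl1 was blank, and no gene identifier of the table was found among cattle RefSeq genes. Most defining transcripts of skeletal muscle were scarce: the median of 18 such markers was 0.28 to 0.815 FPKM across MSTN+/- libraries and 0.135, 0.48 and 1 FPKM for wild-type replicates 1, 2 and 3. Their summed level was 28.2 to 60.9 FPKM and 40.9, 176.6 and 147.1 FPKM in the same order, and 4 of the 18 stayed below 1 FPKM in all libraries. Ckm, the muscle creatine kinase gene, reached at most 1.07 FPKM. Other markers of the list were higher: the myosin light chain gene Mylpf, named after its values were seen, ranged over 6.24 to 26.65 FPKM among MSTN+/- libraries, against 0.75, 154.59 and 125.19 FPKM in the other 3, most of the last 2 sums, and the myosin gene Myh2 at 5.73 to 15.29 FPKM and at most 0.14 FPKM. The group names are therefore used only as labels. Values are FPKM, read fragments scaled to transcript length and library size, so levels of different genes can be set side by side. FPKM totals were 402716 to 464418 per library. Total depth is unknown, and relative depth, read from the steps between low values, was 1 to 1.21.

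LIN28A and LIN28B are RNA-binding proteins of early embryos and stem cells that bind precursors of the microRNA let-7 and block their maturation. TRIM71 is an RNA-binding ubiquitin ligase of the same developmental pathway, and Lin28a, Lin28b and Trim71 are themselves targets of let-7. ESRP1 and ESRP2 direct the exon choices of epithelial cells. MBNL1, MBNL2 and RBFOX2 direct exon choices of differentiated cells, muscle among them, and RBPMS and RBPMS2 are related RNA-binding proteins known from smooth muscle. The table holds 1 value per gene, so exon choice itself was not measured.

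The labelled wild-type libraries were not alike. Wild-type replicates 2 and 3 lay outside the MSTN+/- values for all 10 genes: they were above all 7 MSTN+/- libraries for Lin28a, Lin28b, Trim71, Esrp1, Esrp2, Rbpms and Rbpms2, and below all 7 for Mbnl1, Mbnl2 and Rbfox2. Wild-type replicate 1 was below all 7 MSTN+/- libraries for Lin28b, Trim71, Esrp1 and Esrp2, above all 7 for Mbnl2, and within their range for Lin28a, Mbnl1, Rbpms, Rbpms2 and Rbfox2. As a result the labelled groups overlapped for all 10 genes, while they did not overlap for 32.0% of the genes tested (25.2% with the MSTN+/- libraries above, 6.86% below). Against wild-type replicates 2 and 3 alone, 73.7% of all genes tested did not overlap with the MSTN+/- libraries (42.0% with these above, 31.7% below), so that separation is common in the table.

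**Figure D1:**
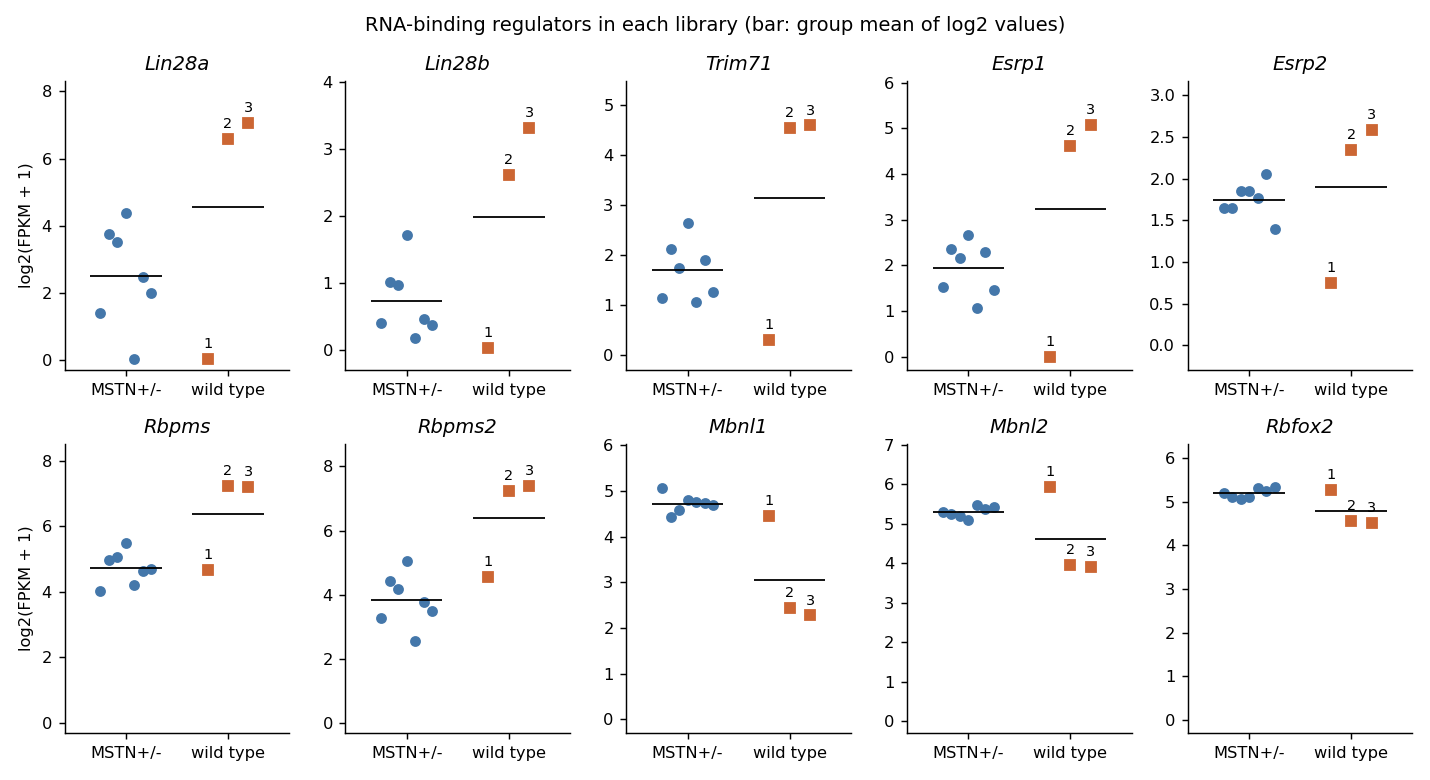
Level of each of the 10 genes in each library, as log2(FPKM + 1), with a separate vertical scale for each gene; circles are the 7 libraries labelled MSTN+/-, squares the 3 labelled wild type with their replicate number, and bars the group means of the log2 values. Wild-type replicates 2 and 3 lie outside the MSTN+/- values for every gene; replicate 1 lies beyond them on the opposite side for 5 genes and within or at the edge of their range for the other 5.

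In the comparison of the labelled groups, 1 of the 10 genes was higher and 2 were lower in the MSTN+/- libraries at an adjusted p under 0.05 (limma, Benjamini-Hochberg over all genes). Over all 14047 genes tested the share called was 44.6% (31.8% higher and 12.8% lower), so the count among the 10 is not above that of the table. Mbnl1 was the higher gene, and Rbpms and Rbpms2 the lower ones. The median log2 change was -1.28 over the 10 genes and 0.17 over all genes tested. The 10 genes were chosen with earlier results of these data known.

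Lin28a (gene 83557) was the most variable of the 10. In MSTN+/- replicates 1 to 7 it was at 1.67, 12.57, 10.33, 19.65, 0.03, 4.54 and 3.03 FPKM, and in wild-type replicates 1, 2 and 3 at 0.03, 94.33 and 131.52 FPKM. MSTN+/- replicate 5 and wild-type replicate 1 thus had the same near-zero value, and the other wild-type libraries had the highest ones. The log2 change of -2.05, on the log2(FPKM + 1) scale used throughout, had a standard error of 1.44 and did not pass the threshold (limma adjusted p = 0.2621). Without wild-type replicate 1 it was -4.30 (limma adjusted p = 0.00202), and with that library as the only wild-type library it was 2.47 (0.158).

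Lin28b (gene 380669), the second LIN28 gene, followed nearly the same order at lower levels. It was at 0.13 to 2.29 FPKM across MSTN+/- libraries, with a median of 0.38 FPKM, and at 0.02, 5.1 and 8.96 FPKM for wild-type replicates 1, 2 and 3. Its log2 change of -1.25 did not pass the threshold (limma adjusted p = 0.1167), and was -2.23 without wild-type replicate 1 (3.678e-04). Where both genes were at 0.5 FPKM or more, Lin28a exceeded Lin28b 8.58 to 12.2 times in 3 MSTN+/- libraries and 18.5 and 14.7 times in wild-type replicates 2 and 3. Lin28a was thus the main LIN28 transcript in each of these 5 libraries.

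Trim71 (gene 636931) was present at 1.1 to 5.27 FPKM across MSTN+/- libraries, with a median of 2.35 FPKM. In wild-type replicates 1, 2 and 3 it was at 0.23, 22.4 and 23.16 FPKM. The MSTN+/- libraries therefore sat between wild-type replicate 1 and the other wild-type libraries, with no overlap with either. The log2 change was -1.44 ± 0.82 (SE; limma adjusted p = 0.1712). It came to -2.87 without wild-type replicate 1 (6.038e-05) and 1.40 with that library alone (0.0574).

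Esrp1 (gene 207920), a splicing regulator of epithelial cells, was listed at 0 in wild-type replicate 1, whereas replicates 2 and 3 had 23.51 and 32.68 FPKM. The MSTN+/- libraries had 1.88, 4.1, 3.48, 5.3, 1.09, 3.88 and 1.74 FPKM in replicates 1 to 7. Every MSTN+/- library was thus above the first of these and below the other 2. With all libraries the log2 change was -1.30 (limma adjusted p = 0.2621), and the direction depended on the wild-type library used: it was -2.92 without replicate 1 (6.279e-05) and 1.93 with replicate 1 alone (0.0161).

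Esrp2 (gene 77411), its paralog, varied less. It was at 1.62 to 3.16 FPKM across MSTN+/- libraries and at 0.68, 4.09 and 4.99 FPKM for wild-type replicates 1, 2 and 3. The log2 change of -0.15 had a standard error of 0.34 and did not pass the threshold (limma adjusted p = 0.7419). Its sign turned without wild-type replicate 2 (0.08) or replicate 3 (0.20), and with replicate 1 alone the change was 1.0 (limma adjusted p = 0.00787). The ratio of Esrp1 to Esrp2 was 0.452 to 2.02 in the MSTN+/- libraries and 5.75 and 6.55 in wild-type replicates 2 and 3, so that Esrp1 was the more abundant ESRP transcript in 5 of 7 MSTN+/- libraries and in both of these.

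Levels of markers of other cell types also differed between these libraries. The median of 16 epithelial markers was 4.8 to 11.7 FPKM across MSTN+/- libraries and 0.075, 11.3 and 21.1 FPKM for wild-type replicates 1, 2 and 3, and their summed level was 142.6 to 295.1, 66.5, 412.1 and 709.2 FPKM in the same order. The epithelial adhesion gene Cdh1 was at 11.26 to 28.86 FPKM and at 0.06, 100.22 and 157.88 FPKM, and Epcam at 12.85 to 31.32 FPKM and at 0.31, 95.41 and 151.76 FPKM. They were among 9 of the 16 epithelial markers arranged like Esrp1, with wild-type replicate 1 below and replicates 2 and 3 above all 7 MSTN+/- libraries. The keratin genes Krt8, named after its values were seen, and Krt19 were instead lower in replicates 2 and 3 than in all 7 (Krt8 at 9.81 and 25.51 FPKM against 26.79 to 68.41 FPKM), and Cdh3 was highest in replicate 1, at 31.72 FPKM. For 18 pluripotency markers the median was 2.62 to 21 FPKM and 0.075, 99.8 and 126 FPKM, and the sum 1285.3 to 2179.8 FPKM and 57.2, 3285.1 and 3696.7 FPKM. Of these 18, 14 were arranged like Esrp1, whereas Pou5f1 and Klf4 were lower in all 3 wild-type libraries than in all 7 MSTN+/- libraries. Among all genes tested, wild-type replicates 2 and 3 were above all 7 MSTN+/- libraries for 31.7%. The share of all genes with the full arrangement of Esrp1 was not computed, so these counts are description only. The 18 mesenchymal and fibroblast markers had a median of 37.4 to 80.2 FPKM and of 59.1, 14.1 and 5 FPKM, with sums of 4739.4 to 8612.2 FPKM and of 9823.7, 993.8 and 770.1 FPKM. No marker of the pluripotency or mesenchymal list, and 1 of the epithelial list, stayed below 1 FPKM in all libraries. The part of these cell types in the levels of the 10 genes was not tested, and in bulk RNA fewer cells of a type and less RNA per cell cannot be told apart.

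Rbpms2 (gene 71973) had the largest change of the 10 in the fit of all libraries, although that of Lin28a was larger without wild-type replicate 1 (-4.30 against -3.49), with library weights (-4.03 against -3.37) and with replicate 1 alone (2.47 against -0.72). It was at 8.77, 20.4, 17.16, 32.26, 4.93, 12.62 and 10.25 FPKM in MSTN+/- replicates 1 to 7 and at 22.37, 149.26 and 167.36 FPKM for wild-type replicates 1, 2 and 3. Only wild-type replicates 2 and 3 stood apart, since replicate 1 was below MSTN+/- replicate 4. Rbpms2 fell by 2.57 on the log2 scale, with a standard error of 0.66 and a limma adjusted p of 0.01043. It did not pass without wild-type replicate 2 (-2.15, adjusted p 0.0573) or 3 (-2.06, 0.0591), with 1 library fewer, and with replicate 1 alone the change was -0.72 (0.44).

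Rbpms (gene 19663) had the same shape at higher MSTN+/- levels, 15.23 to 43.89 FPKM with a median of 24.97 FPKM. Wild-type replicates 1, 2 and 3 were at 24.56, 149.11 and 144.67 FPKM, the first within the MSTN+/- range. Its log2 change was -1.64 with a standard error of 0.53 and a limma adjusted p of 0.02862. It did not pass without wild-type replicate 2 (-1.20, adjusted p 0.143) or 3 (-1.23, 0.141) and, at nearly the same size, without MSTN+/- replicate 1 (-1.52, 0.0506) or 5 (-1.55, 0.0512), and with wild-type replicate 1 alone the change was 0.05 (0.937). Rbpms exceeded Rbpms2 in all 7 MSTN+/- libraries, by 1.36 to 3.55 times, whereas the ratio was 1.1, 0.999 and 0.864 in the wild-type libraries.

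Mbnl1 (gene 56758), a muscleblind splicing regulator that is sequestered by repeat RNA in myotonic dystrophy, went the other way. The MSTN+/- replicates 1 to 7 had 32.73, 20.62, 22.83, 26.94, 25.9, 25.77 and 24.72 FPKM, and wild-type replicates 1, 2 and 3 had 20.83, 4.4 and 3.84 FPKM. Wild-type replicate 1 was above only MSTN+/- replicate 2, and the other wild-type libraries were far below all 7. The standard deviation was 3.79 FPKM among MSTN+/- libraries and 9.65 FPKM among wild-type libraries, whereas the fit takes 1 variance for both groups. Under that assumption Mbnl1 rose by 1.67 on the log2 scale, with a standard error of 0.39 and a limma adjusted p of 0.00683. It passed the threshold in 18 of 19 alternatives, the exception being wild-type replicate 1 alone, where the change was 0.28 (0.271).

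Mbnl2 (gene 105559), its paralog, was at 33.45 to 43.78 FPKM across MSTN+/- libraries, with a median of 38.75 FPKM. It was highest in wild-type replicate 1, at 60.49 FPKM, and lowest in replicates 2 and 3, at 14.63 and 14.09 FPKM. The log2 change of 0.70 had a standard error of 0.37 and did not pass the threshold (limma adjusted p = 0.1411). It was 1.37 without wild-type replicate 1 (1.563e-06) and -0.63 with that library alone (0.00611). The ratio of Mbnl1 to Mbnl2 was 0.555 to 0.845 in the MSTN+/- libraries and 0.344, 0.301 and 0.273 in the wild-type libraries, so on this within-library measure wild-type replicate 1 was nearer to the other wild-type libraries than to the MSTN+/- libraries.

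Rbfox2 (gene 93686), the broadly expressed member of the RBFOX family, had the narrowest span of the 10 among the MSTN+/- libraries. It was at 32.29 to 39.18 FPKM across MSTN+/- libraries and at 37.81, 22.63 and 21.9 FPKM for wild-type replicates 1, 2 and 3. Its log2 change was 0.40 with a standard error of 0.16 and a limma adjusted p of 0.06152, 0.65 without wild-type replicate 1 (8.540e-05) and -0.09 with that library alone (0.583). Its paralogs Rbfox1 and Rbfox3, the forms of muscle and neurons, stayed at or below 0.54 and 0.56 FPKM in all 10 libraries.

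**Figure D2:**
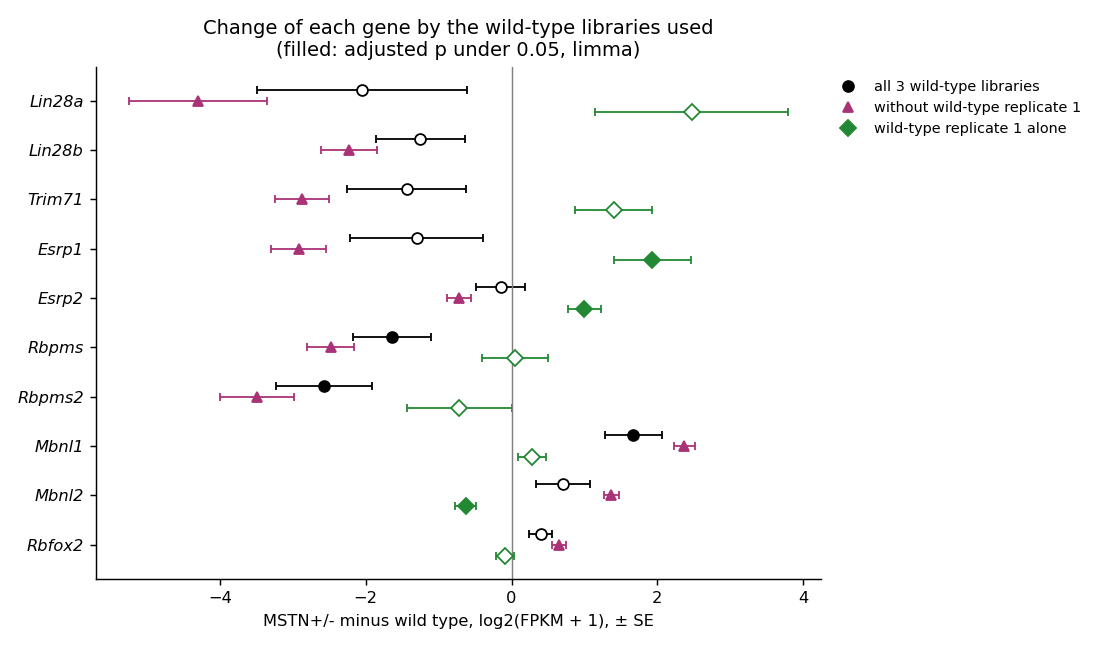
Difference in log2(FPKM + 1) between the MSTN+/- and wild-type libraries for each gene, with its standard error, with all wild-type libraries, without wild-type replicate 1, and with that library alone; filled symbols passed an adjusted p of 0.05 in limma. Without replicate 1 all 10 genes passed; with it alone Esrp1 and Esrp2 were higher, Mbnl2 was lower, and Lin28b fell below the filter and was not tested.

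Which wild-type libraries entered the fit thus set the number of calls. Without wild-type replicate 1, 3 of the 10 genes were higher and 7 lower, where 42.2% and 31.9% of all genes tested were (74.1% in either direction). Without replicate 2 or without replicate 3, Mbnl1 alone was called, as higher. Of all genes 31.0% were called without replicate 2 (25.2% higher, 5.71% lower) and 30.5% without replicate 3 (24.8% higher, 5.70% lower). With replicate 1 as the only wild-type library, a fit that assumes it varies like the MSTN+/- libraries, 2 were higher and 1 lower, beside 33.7% and 10.8% of all genes (44.5% in either direction). No scaling, pseudocount, filter or weighting alternative turned the sign of any of the 10.

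The order of the 10 genes by level also differed between the MSTN+/- libraries and wild-type replicates 2 and 3. By median level in the MSTN+/- libraries, Mbnl2 came first at 38.75 FPKM and Rbfox2 next at 35.45 FPKM, with overlapping ranges. Mbnl1 at 25.77 and Rbpms at 24.97 FPKM overlapped too, then came Rbpms2 at 12.62 FPKM. Lin28a, Esrp1, Esrp2 and Trim71, at 4.54, 3.48, 2.41 and 2.35 FPKM, overlapped with one another, and Lin28b was lowest. In wild-type replicates 2 and 3, Rbpms2, Rbpms and Lin28a came first, and Mbnl1 was the lowest of the 10 in replicate 3 and lower than all but Esrp2 in replicate 2.

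Among the 7 MSTN+/- libraries alone, where wild-type libraries play no part, 7 of the 9 other regulators had an exact permutation p under 0.05 for Pearson's r with Lin28a, unadjusted, 5 of them positive and 2 negative. Of all other genes tested 15% did, 10.4% positive and 4.64% negative. Replicate 4 was highest, replicate 2 next and replicate 5 lowest for Lin28a, Lin28b, Trim71, Esrp1 and Rbpms2, and for Mbnl2 replicate 5 was highest and replicate 4 lowest. Across these 7 libraries Lin28a correlated with Rbpms2 at Pearson's r of 0.987 and Spearman's rho of 1 (exact two-sided permutation tests over 5040 orders, both adjusted p = 0.00278). For Lin28b, Trim71, Esrp1 and Rbpms, r was 0.899, 0.901, 0.937 and 0.907 and rho 0.964, 0.964, 0.929 and 0.893, with exact permutation adjusted p of 0.012 to 0.0185 for r and 0.00972 to 0.0215 for rho. These relations were chosen after the values were seen, and p-values were adjusted over the 14 computed.

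Mbnl2 and Rbfox2 ran the other way, with r of -0.873 and -0.8 and rho of -0.857 and -0.714 (exact permutation adjusted p = 0.0185 and 0.0458 for r, 0.037 and 0.112 for rho). Esrp2 and Mbnl1 did not pass the threshold over the 7 libraries, with r of 0.216 and -0.44 and rho of 0.396 and -0.357 (exact permutation adjusted p = 0.656 and 0.38 for r, 0.444 and 0.479 for rho). Nanog, a pluripotency transcription factor, ranked the 7 libraries exactly as Lin28a did (r = 0.986, rho = 1, exact permutation adjusted p = 0.00278 for both), whereas Pou5f1, another, did not (r = 0.402, rho = 0.25, exact permutation adjusted p = 0.402 and 0.595). Epcam and Cdh1 had r of 0.874 and 0.881 and rho of 0.893 and 0.929 (exact permutation adjusted p = 0.0185 for both r, 0.0215 and 0.0157 for rho), and the collagen gene Col1a1 had r of -0.702 and rho of -0.75 (0.098 and 0.0928).

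Leaving out replicates 4 and 5, the farthest from the median of Lin28a, r was 0.944 for Lin28b, 0.859 for Trim71, 0.823 for Esrp1, 0.902 for Rbpms, 0.994 for Rbpms2, -0.669 for Mbnl2, -0.702 for Rbfox2, -0.91 for Mbnl1 and 0.283 for Esrp2 over the other 5 libraries. All 9 kept their sign, and the value of Mbnl1 moved most, from -0.44. The spans differed widely: from lowest to highest library Rbpms2 differed 6.54 times, Trim71 4.79 times and Rbpms 2.88 times, against 1.31 times for Mbnl2 and 1.21 times for Rbfox2.

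**Figure D3:**
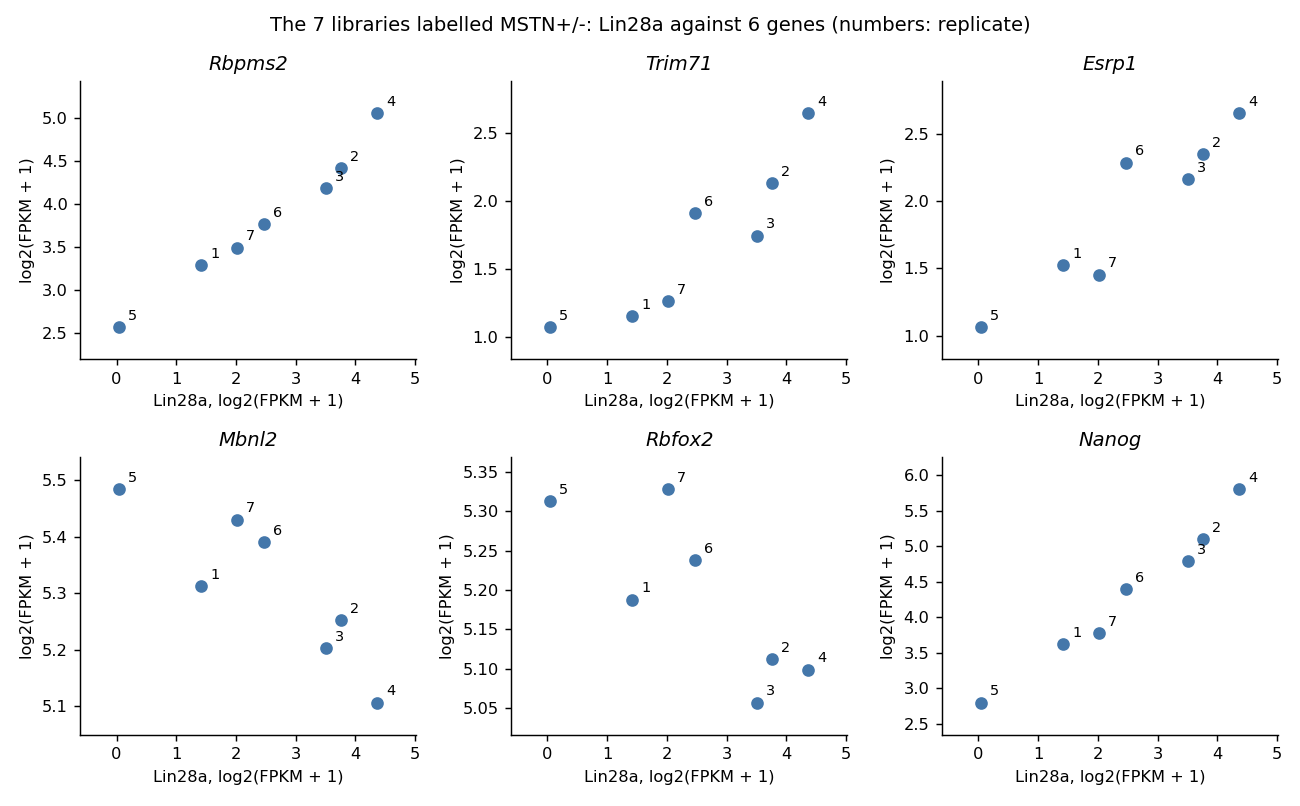
Level of Lin28a against that of Rbpms2, Trim71, Esrp1, Mbnl2, Rbfox2 and Nanog in the 7 libraries labelled MSTN+/-, all as log2(FPKM + 1), each point numbered by replicate; vertical scales differ between panels and do not start at 0. Rbpms2 and Nanog rank the libraries as Lin28a does, and Mbnl2 and Rbfox2 are lower where Lin28a is higher.

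For 4 of the regulators the genes with the most similar profiles over the 10 libraries were identified, as the smallest root-mean-square difference of mean-centred log2(FPKM + 1) among all genes tested. Nearest to Lin28a were Dppa4 (0.327), a chromatin protein of pluripotent cells, Dnmt3l (0.347), a DNA methyltransferase cofactor, and Gm13242 (0.363). Gm13242 has near copies, so its reads may have been shared with them. Dnmt3l was at 1.09 to 44.7 FPKM across MSTN+/- libraries and at 0.22, 237.72 and 289.19 FPKM for wild-type replicates 1, 2 and 3. Nearest to Esrp1 were the Ras-like gene Eras (0.204), the cell polarity gene Llgl2 (0.215) and Nodal (0.217), which encodes a secreted signal of the early embryo. Nodal was at 0.68 to 6.03 FPKM and at 0.04, 21.51 and 32.11 FPKM.

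Rbpms2 was nearest to Klf5 (0.236), Igf2bp1 (0.256) and Klf2 (0.287), of which Klf2 and Klf5 encode transcription factors and Igf2bp1 an mRNA-binding protein. Igf2bp1 was at 5.39 to 22.22 FPKM across MSTN+/- libraries and at 14.99, 96.73 and 83.89 FPKM for the wild-type libraries, so that, as with Rbpms2, wild-type replicate 1 lay within the MSTN+/- range. Nearest to Mbnl1 were 9430020K01Rik (0.131) and the zinc finger gene Zfp768 (0.141). Unlike Mbnl1, neither overlapped between the labelled groups. Zfp768, for example, was at 13.66 to 15.29 FPKM against 12.11, 2.3 and 1.84 FPKM.

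Genes of let-7 processing changed in both directions. Of 11 genes for microRNA processing and for the decay of let-7 precursors, all 11 passed the threshold, 4 higher and 7 lower in the MSTN+/- libraries, where 44.6% of all genes did, with a median log2 change of -0.67 beside 0.17 for all genes. The same counts held without wild-type replicate 1, where 74.1% of all genes were called. Without replicate 2 or without replicate 3 they were 3 higher and 4 lower, and with replicate 1 as the only wild-type library 3 and 2. Quantile normalization gave 2 higher and 7 lower, beside 2874 higher and 3851 lower among all 14047 genes tested. Of all genes 31.0% were called without replicate 2 and 30.5% without replicate 3.

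Transcripts for protein partners of the let-7 processing enzyme Dicer moved in opposite directions. Prkra (gene 23992), which encodes the partner PACT, had 18.63 to 24.27 FPKM across MSTN+/- libraries and 9.11, 6.49 and 5.48 FPKM for wild-type replicates 1, 2 and 3. Tarbp2 (gene 21357), which encodes the partner TRBP, had 12.21 to 15.17 FPKM against 22.28, 32.56 and 32.3 FPKM. Neither overlapped between the labelled groups. Prkra rose by 1.50 ± 0.14 (SE) and Tarbp2 fell by 1.03 ± 0.13 (SE) on the log2 scale (limma adjusted p = 2.644e-05 and 1.956e-04), and both passed the threshold with the same sign in all 19 alternatives.

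Ago2 (gene 239528), the slicing Argonaute protein gene, was at 10.53 to 14.88 FPKM against 22.75, 22.83 and 27.77 FPKM, and its log2 change was -0.83 (limma adjusted p = 6.140e-04). It also passed in all 19 alternatives. The other genes called higher, named here after their values were seen, were Ago1 (0.62), Dis3l2 (1.02), which encodes the exonuclease that destroys uridylated let-7 precursors, and Zcchc6 (0.51). Zcchc6 encodes TUT7, one of the enzymes that add the uridines. Zcchc11, which encodes the other one, TUT4, went the opposite way at -0.67 (limma adjusted p = 0.02829), with 7.44 to 10.17 FPKM across MSTN+/- libraries and 8.34, 16.66 and 19.44 FPKM for the wild-type libraries. Dis3l2 passed in all 19 alternatives, Ago1 in 18, and Zcchc6 and Zcchc11 in 14 each; with wild-type replicate 1 alone Zcchc6 was at 0.16 (limma adjusted p = 0.37) and Zcchc11 at 0.01 (0.961).

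Of 15 textbook targets of let-7, 2 were higher and 6 lower, and 7 did not pass the threshold. The share called in either direction was near the 44.6% of all genes (31.8% higher, 12.8% lower). By direction, in the main fit, most of its calls were lower, whereas 71.3% of the calls among all genes were higher. That share was 50.3% with median-of-ratios scaling and 42.7% with quantile normalization, so this contrast depends on scaling. The median log2 change of the list was -0.78. The largest change was in the transcription factor gene Myc, at 250.5 to 378.9 FPKM across MSTN+/- libraries and 43.17, 25.11 and 22 FPKM for the 3 wild-type libraries, and its log2 change was 3.29 ± 0.20 (SE, limma adjusted p = 1.189e-06). The mRNA-binding protein gene Igf2bp3 had 12.13 to 16 FPKM against 22.29, 29.68 and 33.28 FPKM, and its log2 change was -0.91 (limma adjusted p = 5.387e-04). Both kept their call and sign in all 19 alternatives.

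The chromatin protein genes Hmga1 and Hmga2, named after their values were seen, were not alike. Hmga1 was at 58.57 to 75.25 FPKM across MSTN+/- libraries and at 114.49, 261 and 1034.19 FPKM for the 3 wild-type libraries, and fell by 2.18 (limma adjusted p = 0.005862). Hmga2 was at 14.07 to 21.79 FPKM and was highest in wild-type replicate 1, at 212.49 FPKM, with 37.36 and 17.1 FPKM in replicates 2 and 3, and did not pass (log2 change -1.47, limma adjusted p = 0.05807). Hmga2 passed without wild-type replicate 3 (-2.25, 0.00769), with median-of-ratios scaling (-1.68, 0.0414) and with replicate 1 alone (-3.49, 1.882e-06), and its change ranged from -3.49 to -0.11 over the 19 alternatives. The library with the most Hmga2 was thus one in which Lin28a and Lin28b were near 0. MSTN+/- replicate 5, with Lin28a at 0.03 and Lin28b at 0.13 FPKM, had only 16.83 FPKM of Hmga2. Without wild-type replicate 1, 5 of the let-7 targets were higher and 8 lower, where 42.2% and 31.9% of all genes were. Without replicate 2 the counts were 2 and 5, beside 25.2% and 5.71% of all genes. Without replicate 3 they were 2 and 6, beside 24.8% and 5.70%.

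Among 28 other splicing regulators tested, of 33 in the table, 5 were higher and 10 lower, with a median log2 change of -0.54. Of all genes 31.8% were higher and 12.8% lower, and the share called in either direction is near that of the table, 44.6%. By direction, in the main fit, most of its calls were lower, whereas most calls among all genes were higher, a contrast that depends on scaling. The lower ones were mostly abundant general factors such as Ptbp1 (gene 19205), the polypyrimidine tract-binding repressor of exons, at 111.21 to 165.79 FPKM against 210.79, 300.99 and 322.66 FPKM. Ptbp1 fell by 0.85 (limma adjusted p = 0.002264), a call lost with wild-type replicate 1 alone (-0.47, 0.0697). The higher ones were Rbm24, Nova2, Tia1, Celf3 and Rbm20. Of these, Rbm24, Celf3 and Rbm20 stayed below 1 FPKM in every wild-type library. They passed the filter only through MSTN+/- libraries, so their calls are description and no support for a change. Rbm24, a muscle splicing regulator, was at 1.65 to 2.54 FPKM against 0.43, 0 and 0.03 FPKM, and Nova2, a neuronal one, at 2.25 to 4.46 FPKM against 0.08, 1.12 and 1.12 FPKM, and their log2 changes were 1.42 and 1.33 (limma adjusted p = 7.388e-05 and 0.001723). With wild-type replicate 1 left out, 16 were lower and 6 higher. With replicate 2 left out the counts were 2 and 5, with replicate 3 left out 3 and 5, and with replicate 1 alone 1 and 4. Under quantile normalization 16 were lower and 2 higher, and under median-of-ratios scaling 15 and 5. Of the calls among all genes 42.7% and 50.3% were higher under these. Without wild-type replicates 1, 2 and 3 in turn, 74.1%, 31.0% and 30.5% of all genes were called.

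RNA-binding proteins of germ cells and early embryos, 9 tested of 11, had 1 member higher and 1 lower, a share below the 44.6% of all genes, and a median log2 change of -0.56. Ddx4, a helicase gene of germ cells, was at 0.18 to 1.52 FPKM against 0.13, 5.22 and 10.44 FPKM, and its log2 change was -1.58 (limma adjusted p = 0.04683). It passed in 5 of 14 alternatives. Tdrkh, a gene of the piRNA pathway, was at 1.14 to 2.98 FPKM against 1.44, 0.82 and 0.45 FPKM, and its log2 change was 0.61 (limma adjusted p = 0.03769). It passed in 7 of 18 alternatives and was -0.01 with quantile normalization. Mael, another piRNA gene, had a log2 change of -1.81 and did not pass (limma adjusted p = 0.06139). L1td1, an RNA-binding protein gene of pluripotent cells named after its values were seen, was at 20.42 to 51.33 FPKM across MSTN+/- libraries and at 0.06, 190.9 and 169.04 FPKM for the wild-type libraries, the same arrangement as for Lin28b, Trim71 and Esrp1. Without wild-type replicate 1, 8 genes of this list were lower and 1 higher, where 31.9% and 42.2% of all genes were. Without replicate 2 or without replicate 3 Tdrkh did not pass (0.60 and 0.43, limma adjusted p = 0.109 and 0.181). Ddx4 was below the filter there and not tested. Quantile normalization called 4 lower, and library weights 5 lower and 1 higher. Among all 14047 genes these called 3851 and 3368 lower, and 2874 and 4862 higher.

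Genes with exons known to be switched by ESRP, RBFOX or MBNL proteins, 16 tested of 18, had 5 members higher and 2 lower at the level of the whole gene, about the share called among all genes (44.6%), with a median log2 change of 0.55. The higher ones were Mef2d, Exoc7, Mef2c, Insr and Ktn1. The transcription factor gene Mef2d was at 28.76 to 36.65 FPKM against 18.42, 15.72 and 13.04 FPKM, Exoc7, which encodes an exocyst subunit, at 20.09 to 22.65 FPKM against 14.15, 11.22 and 8.69 FPKM, and Mef2c at 3.34 to 5.12 FPKM against 2.06, 0.14 and 0.2 FPKM. Their log2 changes were 1.02, 0.89 and 1.62 (limma adjusted p = 1.518e-04, 4.490e-04 and 0.001324). The lower ones were Enah, an actin regulator gene, at -1.20, and Ctnnd1, the p120 catenin gene, at -0.25 (limma adjusted p = 0.02141 and 0.0449), and Ctnnd1 passed in 9 of 19 alternatives. Without wild-type replicate 1 the counts were 12 higher and 3 lower, and with it alone 3 and 6. They were 4 and 0 without replicate 2, 4 and 1 without replicate 3, and 10 and 1 with library weights. Of all genes 74.1% were called without replicate 1, 31.0% without replicate 2 and 30.5% without replicate 3. Library weights called 8230 of 14047.

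**Figure D4:**
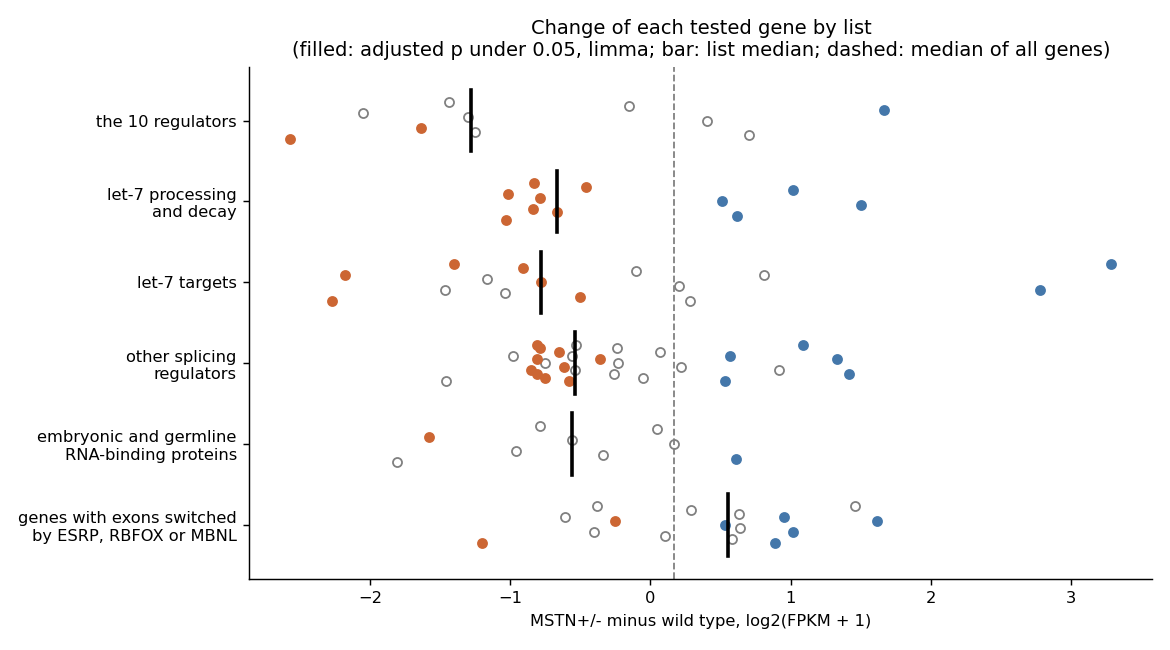
Difference in log2(FPKM + 1) between MSTN+/- and wild-type libraries for each tested gene of the 10 regulators and of 5 related lists; filled points passed an adjusted p of 0.05 in limma (blue higher, orange lower), the black bar is the list median and the dashed line the median of all genes tested, 0.17. All 11 genes of let-7 processing and decay are filled, and Myc and Ccnd2 lie farthest to the right among the let-7 targets.

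The marker lists give the cell types against which these levels can be read. In the comparison of labelled groups 3 epithelial markers were higher and 1 lower of 15 tested, 7 mesenchymal markers higher and none lower of 18, and 1 pluripotency marker higher and 1 lower of 18, where 31.8% of all genes were higher and 12.8% lower. Cdh3 (-2.29) and Krt19 (2.41) had the smallest p among epithelial markers, Dcn (3.64) and Lum (2.51) among mesenchymal ones, and Klf4 (2.50) and Klf2 (-2.92) among pluripotency ones, where Pou5f1 (3.54) came next and did not pass. Pou5f1 passed at 0.77 without wild-type replicate 1, at 5.07 without replicate 3 and at 9.06 with replicate 1 alone (limma adjusted p = 0.00169, 0.0299 and 2.001e-08). Skeletal muscle markers had 3 higher and 1 lower of 8 tested, with Myh2 (3.52) and Myh1 (1.82) first. Neuron markers had 3 higher of 7, with Snap25 (0.88) and Syp (0.97) first. Endothelial and blood markers had 1 higher of 4, Tek (3.24), with Cdh5 (0.96) next and not past the threshold. Myh2, Myh1, Snap25, Syp and Cdh5 stayed below 1 FPKM in every wild-type library. They passed the filter only through MSTN+/- libraries, so their changes are given as description only. Of 6 smooth muscle markers 0 passed in limma and 1 had an unadjusted p under 0.05, and library weights called 2 higher and 1 lower. Library weights also called all 18 mesenchymal markers higher, and 10 pluripotency and 7 epithelial markers lower. Among all 14047 genes they called 4862 higher and 3368 lower.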

How the data were processed

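The authors deposited 1 table of FPKM values per gene and library, per the file headers, rounded to 2 decimals. Which aligner, counter, build and gene models were used, and how reads shared by paralogs were assigned, is not given in the sources used here. RNA came from frozen tissue by Trizol, per the labels' protocols. Groups follow the genotype label, replicate numbers only name libraries, and columns were tied to libraries by title. The labels give no batch.

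The members and lists were chosen with earlier results of these data known. The group difference of each gene was estimated by limma 3.58.1 under R 4.3.3 from log2(FPKM + 1), letting the prior variance follow mean level, with 8 residual degrees of freedom. The fit takes 1 variance per gene for both groups, and among the alternatives only library weights let libraries differ in spread. Genes had to reach 1 FPKM in 3 or more libraries, which 14047 of 21130 did. P-values were adjusted over these (Benjamini-Hochberg) and the threshold was 0.05. The log2(FPKM + 1) scale understates changes of low genes. The filter lets a gene that is low in 1 group pass through the other group alone. Named genes were the 10 regulators, the 3 nearest profiles of Lin28a, Esrp1, Rbpms2 and Mbnl1, the genes of smallest p in each of 12 lists (181 of 182 symbols found), and 6 markers set beside the regulators; others are named as chosen later. Some genes that this rule names are not reported here. Correlations were tested by exact permutation (scipy 1.17.1). The fit was tested on simulated data.

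Alternatives, 19 in all, were: no filter on low values; a filter at a mean of 5 FPKM; a pseudocount of 0.1; median-of-ratios, TPM and quantile scaling, robust empirical Bayes, library weights, leaving out each library, and wild-type replicate 1 as the only wild-type library. Figures were drawn with matplotlib 3.10.9.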

Additional observations from a re-analysis of the deposited data

Results flagged for a closer look

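Lin28b in MSTN+/- replicate 4, at 2.29 FPKM, stood apart from the other 6 MSTN+/- libraries: its gap to the next value was 0.583 of the range of the 7, above the critical value of Dixon's test. The same library was highest of the 7 for Lin28a, Trim71, Esrp1, Rbpms and Rbpms2 without standing apart by this measure. Of 16 genes looked at this way Lin28b was the only one to stand apart. By chance about 1 gene in 20 would be flagged, so a flag among 16 genes is not unusual.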

How the results depend on the processing

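The wild-type libraries decided most results. The number of the 10 regulators called, 3 with all libraries (1 higher, 2 lower), ran from 1 to 10 when single libraries were left out (1 to 3 higher, 0 to 7 lower), was 8 with library weights (3 higher, 5 lower), and with wild-type replicate 1 alone had 2 higher and 1 lower. All genes called, 6268 with all libraries (4468 higher, 1800 lower), ran from 4236 to 10347 over the same left-out libraries (3445 to 5898 higher, 791 to 4449 lower). Higher genes were 2874 with quantile normalization, and lower genes 3230 with median-of-ratios scaling, 3851 with quantile normalization and 3368 with library weights. The share of calls that were higher was 71.3%, and 50.3% with median-of-ratios scaling, 42.7% with quantile normalization, 59.1% with library weights, 57.0% without wild-type replicate 1 and 81.5% and 81.3% without replicates 2 and 3. The median change of all genes was 0.17, and -0.10 with quantile normalization.

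With wild-type replicate 1 alone the sign turned for Lin28a (2.47), Trim71 (1.40), Esrp1 (1.93), Esrp2 (1.0), Mbnl2 (-0.63), Rbpms (0.05), Rbfox2 (-0.09), Dppa4 (2.20), Dnmt3l (3.22), Gm13242 (2.10), Eras (1.67), Llgl2 (1.57), Nodal (1.58), Nanog (3.39), Col1a1 (-0.98), Epcam (3.99), Cdh1 (4.04), Zcchc11 (0.01), Enah (0.04) and Mylpf (2.98). In separate fits without wild-type replicate 2 and without replicate 3 it turned for Esrp2 (0.08, 0.20), Epcam (0.55, 0.88) and Cdh1 (0.43, 0.76). Without replicate 2 the sign also turned for Nanog (0.12). Over all left-out libraries Esrp2 ran from -0.72 to 0.20, Nanog from -3.35 to 0.12, Epcam from -2.55 to 0.88, Cdh1 from -2.86 to 0.76 and L1td1 from -2.42 to 1.33. A pseudocount of 0.1 turned Epcam (0.13) and Cdh1 (0.28), and quantile normalization Tdrkh (-0.01). L1td1, at 0.05 with all libraries, was at -0.08 with median-of-ratios scaling, -0.10 with quantile normalization and -1.97 with library weights. It was at -0.01 without MSTN+/- replicate 2, -0.05 without MSTN+/- replicate 4 and -2.42 without wild-type replicate 1. The cause was not tested.

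The correlations with Lin28a, with alternatives chosen after seeing the data, kept their sign in each. Trim71, Rbpms, Epcam and Cdh1 missed the threshold without MSTN+/- replicate 4 (r of 0.872, 0.87, 0.815 and 0.83), Mbnl2 without replicate 4 or 5 (-0.816, -0.812), and Rbfox2 at the lower pseudocount (-0.744) and on leaving out any 1 of replicates 2 to 6, over 6 libraries each. No paired analysis was possible because the labels give no replicate numbers. Total depth is unknown, so values near 0, such as those of Lin28a and Lin28b in wild-type replicate 1, have no interval.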

Other observations

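Smooth muscle transcripts were highest in another library than Rbpms and Rbpms2. The 7 smooth muscle markers summed to 183.0 to 325.7 FPKM per MSTN+/- library, to 2398.1 FPKM in wild-type replicate 1, and to 67.2 and 46.5 FPKM in replicates 2 and 3, where Rbpms and Rbpms2 were highest. Cnn1, which encodes an actin-binding protein, ranged over 0.95 to 1.5 FPKM among MSTN+/- libraries, against 71.68, 1.62 and 3.06 FPKM for wild-type replicates 1, 2 and 3. Smtn, which encodes smoothelin, ranged over 12.4 to 16.45 FPKM, against 42.9, 14.86 and 14.63 FPKM. Neither passed the threshold with all libraries (log2 changes of -2.07 and -0.53, limma adjusted p = 0.05851 and 0.1455). Cnn1 passed in 6 of 19 alternatives, among them without wild-type replicate 1 (-0.58, 0.0151), without replicate 2 (-2.97, 0.0198) and with replicate 1 alone (-5.05, 1.704e-07), and Smtn with replicate 1 alone (-1.52, 8.438e-05). In wild-type replicate 1 Rbpms2 was at 22.37 FPKM and Rbpms at 24.56 FPKM, both within the range of the MSTN+/- libraries.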
